A study of Mus musculus with 6 samples.

Results

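The SLAM family (signalling lymphocyte activation molecules) was followed through an ATAC-seq comparison of mouse natural killer (NK) cells with and without Rroid, a noncoding RNA locus on chromosome 12 that neighbours the gene Id2. ATAC-seq reads out open chromatin through the places where a transposase can insert adapters. The members were the peaks whose nearest gene was Cd244, Ly9, Slamf7, Cd48, Slamf1, Cd84 or Slamf6. There were 29 such peaks of 51775 in the table, all on chromosome 1 between 173483409 and 173896743 (mm9, coordinates as deposited), a stretch of 413.3 kb. Cd244 had 5 peaks, Ly9 6, Slamf7 3, Cd48 4, Cd84 6 and Slamf6 5, and no peak had Slamf1 as its nearest gene. The nearest gene is a matter of distance alone and does not say which gene a peak serves.

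Both groups were C57BL6 mice, 3 libraries of wildtype and 3 of Rroid-deficient NK cells. Spleen cells lacking CD3 and CD5 and carrying NK1.1 and NKp46 were sorted, and 50000 cells per genotype were transposed in triplicate. The labels name no treatment and no age, do not describe the Rroid allele, and do not say whether libraries came from separate animals. The p-values therefore measure the spread between these libraries, which may be technical. Values are always given in the order of the library numbers, 1 to 3 for wildtype and 4 to 6 for Rroid-deficient, as normalized reads (reads in the peak divided by a factor for each library).

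SLAM receptors are surface proteins of the immunoglobulin superfamily. Most of them bind another copy of themselves on a neighbouring blood cell, whereas Cd244 (2B4) binds Cd48. Their cytoplasmic tails recruit the small adaptors SAP (gene Sh2d1a) and EAT-2 (gene Sh2d1b1), which turn the receptors towards activation. When adaptors are lacking, phosphatases can bind in their place and the signal can become inhibitory. In NK cells the family tunes killing of other blood cells and the education of the NK cell itself.

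The windows below belong to 3 members. By the deposited distances and widths, the nearest peak of each covers the 250 bases before its annotated start site. The RefSeq windows were not placed on the build of the peaks. Whether a peak covers every printed base was therefore not checked. By the same deposited distances, the nearest Slamf7 peak ran from 3710 to 4978 bp after the start site. It does not reach the 250 bases before that site, and the Slamf7 window is not shown. The nearest Slamf6 peak reached from 318 bp before to 978 bp after the start site, the Cd48 peak from 1148 bp before to 198 bp after, and the Cd244 peak from 366 bp before to 3718 bp after. Each line is the 250 bases before the start site in RefSeq, on the plus strand of chromosome 1 in GRCm38.p6, a different build from that of the peaks. Start sites may differ between the annotations. Capitals mark the E-box CANNTG, the motif bound by E proteins, the partners that Id2 blocks.
Slamf6 (chr1:171917212-171917461, +): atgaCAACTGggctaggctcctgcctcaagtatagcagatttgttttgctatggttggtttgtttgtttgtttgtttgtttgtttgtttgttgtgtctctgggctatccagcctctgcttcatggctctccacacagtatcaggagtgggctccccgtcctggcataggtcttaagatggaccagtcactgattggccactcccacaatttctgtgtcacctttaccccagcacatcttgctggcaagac
Cd48 (chr1:171681742-171681991, +): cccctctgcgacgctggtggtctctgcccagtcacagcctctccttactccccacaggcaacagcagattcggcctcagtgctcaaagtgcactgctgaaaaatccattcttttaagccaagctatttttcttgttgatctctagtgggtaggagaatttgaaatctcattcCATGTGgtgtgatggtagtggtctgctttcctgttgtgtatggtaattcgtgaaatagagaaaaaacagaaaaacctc
Cd244 (chr1:171558943-171559192, +): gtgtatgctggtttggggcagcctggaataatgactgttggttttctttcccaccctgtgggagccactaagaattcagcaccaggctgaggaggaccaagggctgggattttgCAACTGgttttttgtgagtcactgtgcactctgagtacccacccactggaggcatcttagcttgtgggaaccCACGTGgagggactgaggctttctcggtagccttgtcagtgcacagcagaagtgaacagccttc

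The Slamf6 and Cd48 windows held 1 E-box each and the Cd244 window held 2. Among 32851 RefSeq promoter windows of the same length, 66.2% held CANNTG on either strand. The form CAGCTG, which is included in CANNTG, was in 0 of these 3 windows and in 13.0% of all. The Runx motif TGTGGT and the TCF/LEF motif CTTTGA were each found once in the Cd48 window, and in neither of the other two, against 14.0% and 13.8% of all windows. The T-box letters GTGTGA were also found once at Cd48 (12.3% of all windows), and the ETS letters GGAAGT in 0 of the 3 (19.7%). Both strands were searched. The Cd48 T-box match overlaps neither the E-box nor the TCF/LEF match, while its Runx match shares letters with the E-box and the T-box match. Such matches are descriptions of sequence.

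All 6 libraries went with their genotype label at a block of peaks on chromosome 12. This block, 13 peaks nearest to Gm17746, summed to 4182 to 5600 normalized reads in wildtype and 51.4 to 56.8 in Rroid-deficient libraries. These peaks were picked by genotype label, for lying below 10% of wildtype, so a low Rroid-deficient sum was set by that choice. The ranges show only that no single library departed from its label. Libraries held 27572006 to 47939665 reads in peaks, and Rroid-deficient libraries 4 and 6 were the shallowest. Member peaks held 33 to 2984 reads in any library. NK markers had open start sites (8 of 8 genes with a peak within 1 kb, median peak value 1993 in wildtype). Of the other lists, 3 of 8 T-cell, 2 of 6 B-cell and 3 of 6 myeloid marker genes had such a peak. Ms4a1, Pax5, Cd79a, Lyz2, Csf1r, Cd3e, Cd4 and Cd8a were among those with none.

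Within the SLAM cluster, Slamf6 went against Cd244, Ly9, Cd48 and Cd84. Of its 5 peaks, 4 were more open in Rroid-deficient cells, and every called peak of those other genes was less open. Over all 29 member peaks, 5 fell, 4 rose and for 20 no change was called (limma on log2 of the value plus 1, adjusted p under 0.05). Across all peaks 12.1% were called lower and 13.8% higher, and among the members 17.2% and 13.8%, a share near that background. Leaving out wildtype library 2 brought the number that fell to 1, leaving out Rroid-deficient library 4 also to 1, and leaving out library 6 to 2. The median log2 fold change was -0.14 over the members and -0.01 over all peaks. It was -0.07 over all peaks with a mean value at or above the median. The median mean value was 228 for the members and 195 for all peaks. The 3 libraries of each genotype did not overlap at 7 member peaks that were lower and 4 that were higher in Rroid-deficient cells, against 20.1% and 20% of all peaks. By role, the falling peaks belonged to Cd48 and its receptor Cd244 (1 each) and to the self-binding receptors Ly9 (1) and Cd84 (2). The rising peaks belonged to Slamf6 alone among the genes of the rule. None of the 3 Slamf7 peaks was called, but a peak inside Slamf7 with Mir7683 as nearest gene rose 2.52-fold, as described below.

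**Figure D1:**
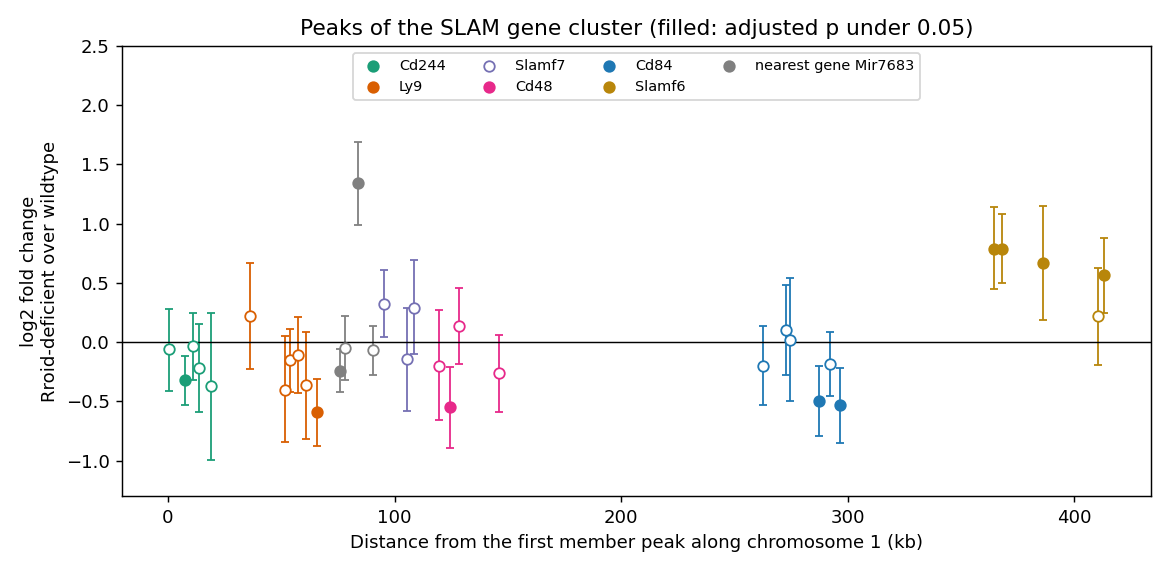
log2 fold change of each peak of the SLAM cluster (Rroid-deficient over wildtype, bars the 95% confidence interval by limma) against its distance from the first member peak in kb, coloured by nearest gene, filled where the adjusted p was under 0.05. The 5 Slamf6 peaks at the right end all lie above 0 (0.22 to 0.79), and the filled peaks of Cd244, Ly9, Cd48 and Cd84 lie between -0.59 and -0.32; the high grey point is a peak inside Slamf7 whose nearest gene is Mir7683.

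Slamf6 (Ly108) is a self-binding receptor that signals through SAP and EAT-2. Whether its start-site peak covers all of the sequence shown above, whose E-box lies at the upstream end, was not checked. This peak (330 bp downstream, in intron 1, 173847351 to 173848645) held 139.8, 155 and 129.9 normalized reads in the wildtype libraries, against 248, 229 and 261 in the Rroid-deficient libraries. Every Rroid-deficient library lay above every wildtype library. The peak rose 1.74-fold, from 142 ± 12.9 to 246 ± 15.9 (mean ± SD, n = 3, here and below; log2 fold change 0.79 with SE 0.16, adjusted p = 0.00153, limma, adjusted by Benjamini-Hochberg over all peaks).

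A second intron 1 peak of Slamf6, 3849 bp downstream of the start (173851022 to 173852013), held 225, 239 and 207 normalized reads in the wildtype libraries, against 378, 368 and 418 in the Rroid-deficient libraries. It rose 1.73-fold (log2 fold change 0.79 with SE 0.14, adjusted p = 0.000444, limma), with no overlap between genotypes, and was the member peak with the smallest p. Both intron 1 peaks changed by nearly the same factor, while their wildtype levels differed, at 226 against 109 normalized reads per kb of peak.

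Further along the gene, the intron 6 peak (173869225 to 173870088) held 74.8, 72.3 and 88.9 normalized reads in the wildtype libraries, against 115, 167 and 102 in the Rroid-deficient libraries. Its genotypes did not overlap either, but library 5 lay well above libraries 4 and 6, and the call was the least secure of the Slamf6 calls (log2 fold change 0.67 with SE 0.23, adjusted p = 0.0386, limma). Leaving out library 1, 2, 4 or 5 raised the adjusted p to 0.0726, 0.118, 0.0557 and 0.166, and loess normalization to 0.0769. The most distal peak, 48693 bp from the start (173895979 to 173896743, intergenic), held 243, 255 and 197 normalized reads in the wildtype libraries, against 355, 310.3 and 364 in the Rroid-deficient libraries. All 3 Rroid-deficient values were above the wildtype values (log2 fold change 0.57 with SE 0.15, adjusted p = 0.00972, limma; 0.0554 without Rroid-deficient library 6). The remaining Slamf6 peak, 46339 bp from the start, held 111 ± 16.2 in wildtype against 129 ± 7.6 in Rroid-deficient cells and did not pass the test (adjusted p = 0.43).

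Of all peaks as high as the Slamf6 peaks (mean value 103 to 306), 17.7% were called higher. In that height range the median deviation of a library from the mean of the 6 was 0.06, -0.05 and 0.02 on the log2 scale in the Rroid-deficient libraries, and -0.02 to 0.02 in the wildtype ones. At the Slamf6 peaks the same deviation was 0.34, 0.30 and 0.37 in Rroid-deficient libraries and -0.51 to -0.26 in wildtype. With libraries 4 and 6 both left out, which leaves 1 Rroid-deficient library that is assumed to vary like the wildtype, the start-site peak had a log2 fold change of 0.70 (adjusted p = 0.0835), the second intron 1 peak was still called (adjusted p = 0.0362), as was the intron 6 peak, where library 5 is the highest (adjusted p = 0.0206), and the most distal peak had 0.43 (adjusted p = 0.257).

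T-cell marker genes, among them genes of the CD3 and CD5 proteins that the sort selected against, moved in the same direction as Slamf6 at 2 of their 3 start-site peaks. Cd3g held 58.7 ± 5.8 in wildtype against 353 ± 33.5 in Rroid-deficient cells and Cd5 64.5 ± 47.2 in wildtype against 130.3 ± 11.8 in Rroid-deficient cells, both called higher (the Cd5 groups overlapped), while Cd28 held 2315 ± 106 in wildtype against 2105 ± 43.9 in Rroid-deficient cells without a call. The summed T-cell list ranged from 2367 to 2485 in wildtype and from 2493 to 2649 in Rroid-deficient libraries, and the NK list, with 5 of 8 peaks called lower, from 19606 to 22515 and from 16318 to 19742. The part of these shifts in the Slamf6 result, or in the falling peaks of the other members, was not tested. In bulk cells, a change in each cell and a change in the mix of cells cannot be told apart.

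Cd244 encodes 2B4, the receptor for Cd48, which can activate or inhibit NK cells. Its main peak (173488960 to 173493041, annotated to intron 1 and reaching across the start site) was the widest and highest of the 29, 4083 bp wide, and held 2346, 2507 and 2337 normalized reads in the wildtype libraries, against 1662, 2148 and 1971 in the Rroid-deficient libraries. All wildtype values lay above all Rroid-deficient ones. The peak fell to 80.4% of wildtype (log2 fold change -0.32 with SE 0.10, adjusted p = 0.0224, limma). Library 4 was the lowest, and the call was lost without it (adjusted p = 0.132), without Rroid-deficient library 6 (0.0613) and without wildtype library 2 (0.0855). The other 4 Cd244 peaks had log2 fold changes of -0.37 to -0.03 and no call, and their genotypes overlapped. One of them, a narrow intron 1 peak (173494251 to 173494864), stood beside the main peak in openness per kb in wildtype (638 against 587 normalized reads per kb) and held 392 ± 53.8 in wildtype against 381 ± 8.7 in Rroid-deficient cells.

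Cd48 is the ligand of 2B4, carried by most blood cells on a lipid anchor. A peak 4182 bp upstream of its start (173607661 to 173608347, intergenic) held 257, 325 and 349.7 normalized reads in the wildtype libraries, against 189.6, 244 and 201 in the Rroid-deficient libraries. The groups did not overlap, and the peak fell to 68.0% of wildtype (log2 fold change -0.55 with SE 0.16, adjusted p = 0.0189, limma). The highest Rroid-deficient value (library 5) and the lowest wildtype value (library 1) lay close together, and the call was lost when wildtype library 2 or 3 or Rroid-deficient library 4 or 6 was left out (adjusted p = 0.0748, 0.0845, 0.0688 and 0.0724).

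The Cd48 promoter peak (173611039 to 173612383), which by its deposited distance spans the start site, held 212, 243 and 205 normalized reads in the wildtype libraries, against 216, 255 and 256 in the Rroid-deficient libraries. These values overlapped, with a log2 fold change of 0.14 (95% interval -0.18 to 0.46, adjusted p = 0.543, limma). The highest Cd48 peak, in intron 2 (173628949 to 173629655), held 309, 356 and 324 normalized reads in the wildtype libraries, against 224, 305 and 301 in the Rroid-deficient libraries. It was lower in all Rroid-deficient libraries than in any wildtype library, library 5 only just, and did not pass the test (adjusted p = 0.218). The last Cd48 peak, 9252 bp upstream, held 112 ± 23.8 in wildtype against 96.7 ± 14.1 in Rroid-deficient cells.

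Ly9 (CD229) is a self-binding receptor of the family with a long extracellular part. Its called peak lay 11733 bp upstream of a start site, in the stretch between Ly9 and Slamf7 (173548834 to 173549714, intergenic), and held 406, 403 and 393 normalized reads in the wildtype libraries, against 237, 266 and 295 in the Rroid-deficient libraries. The wildtype libraries were nearly equal, and every Rroid-deficient library was lower. The fall to 66.4% of wildtype was the deepest among the 29 peaks (log2 fold change -0.59 with SE 0.14, adjusted p = 0.00374, limma), and it was called in each fit that left out 1 library. The Ly9 start-site peak (173536633 to 173537861), the highest of the gene, held 493, 524 and 524 normalized reads in the wildtype libraries, against 431, 534 and 429 in the Rroid-deficient libraries. Library 5 was above all wildtype libraries there while libraries 4 and 6 were below them (log2 fold change -0.15, adjusted p = 0.405). The other 4 Ly9 peaks had no call, with log2 fold changes of -0.40 to 0.22.

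Cd84 is another self-binding receptor that recruits SAP. In this table its nearest peak to a start site lay 984 bp downstream, at exon 2 (173770321 to 173771303), and held 351, 396 and 377 normalized reads in the wildtype libraries, against 233, 288 and 276 in the Rroid-deficient libraries. It fell to 70.9% of wildtype with no overlap (log2 fold change -0.50 with SE 0.14, adjusted p = 0.0141, limma; 0.0681 when wildtype library 2 was left out, 0.0679 when library 4 was). An intronic peak 9985 bp downstream (173779450 to 173780176) held 355, 330.2 and 291 normalized reads in the wildtype libraries, against 206, 253 and 215 in the Rroid-deficient libraries. It fell to 69.0% (log2 fold change -0.53 with SE 0.15, adjusted p = 0.014, limma; 0.0522, 0.0533 and 0.0590 without wildtype library 2 and Rroid-deficient libraries 4 and 6). Between these, the highest Cd84 peak (173775052 to 173776112) held 582, 527 and 446 normalized reads in the wildtype libraries, against 439, 446 and 481 in the Rroid-deficient libraries, with overlap and no call (adjusted p = 0.328). The 3 upstream Cd84 peaks had log2 fold changes of -0.20 to 0.10 and no call.

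**Figure D2:**
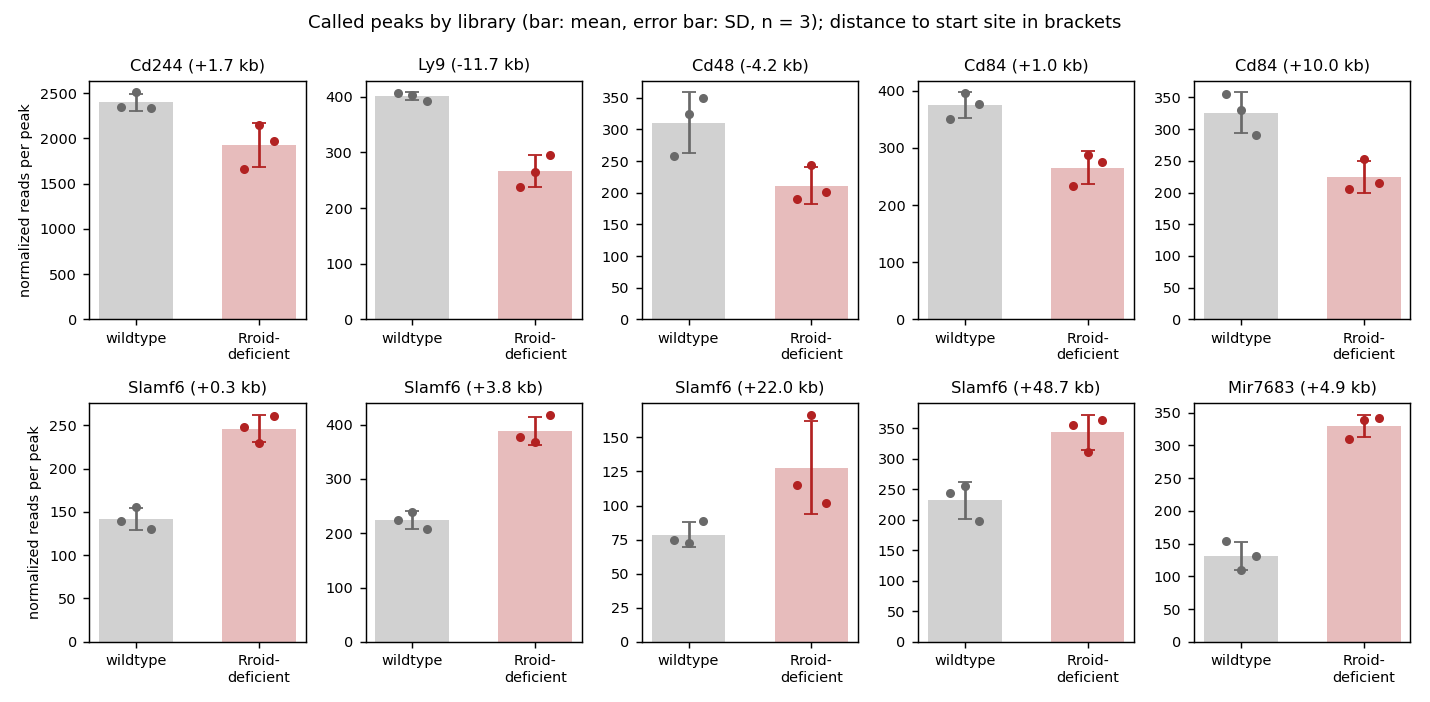
Normalized reads per peak in each library (points), with the mean (bar) and SD (error bar, n = 3), for the 9 called member peaks and the rising peak inside Slamf7, titled by nearest gene and distance to its start site in kb. The upper row shows the peaks of Cd244, Ly9, Cd48 and Cd84 that were lower in Rroid-deficient cells, and the lower row the 4 Slamf6 peaks and the Slamf7 intron peak that were higher; in no panel do the groups overlap.

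Slamf7 (CRACC) is a self-binding receptor that activates NK cells through EAT-2. By nearest gene it had 3 peaks, none of them called. The highest, in intron 2 (173578191 to 173579458), held 473, 488 and 406 normalized reads in the wildtype libraries, against 476, 619 and 626 in the Rroid-deficient libraries. Libraries 5 and 6 were above all wildtype values and library 4 was level with them (log2 fold change 0.32, SE 0.13, adjusted p = 0.0865, limma). With loess normalization, with scaling to equal totals or without library 4 this peak was called higher (adjusted p = 0.0429, 0.0357 and 0.0263). The other 2, both upstream, had log2 fold changes of -0.14 and 0.29.

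The nearest-gene label hides part of Slamf7. Of the 33 peaks in the stretch, 4 had the microRNA gene Mir7683 as nearest gene, and 3 of these lay in Slamf7 itself by their own annotation (intron 2, intron 6 and the transcript's end); these peaks fall outside the rule and were picked with their values in view. The intron 6 peak (173566790 to 173567568) held 153, 109 and 131 normalized reads in the wildtype libraries, against 310.3, 338 and 341 in the Rroid-deficient libraries. It rose 2.52-fold, with groups far apart (log2 fold change 1.34 with SE 0.17, adjusted p = 1.58e-05, limma), the largest change in the stretch, and was called in every alternative run on it. It is 4852 bp from the Mir7683 start site.

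The intron 2 peak with that label (173573482 to 173574370) was the most open of the 33 per kb, at 2347 normalized reads per kb in wildtype, and held 2088 ± 146 in wildtype against 1992 ± 238 in Rroid-deficient cells, without a call. The peak just past the end of Slamf7 (173557944 to 173560608, intergenic) held 3001, 3329 and 3015 normalized reads in the wildtype libraries, against 2499.7, 2842 and 2573 in the Rroid-deficient libraries and fell slightly (log2 fold change -0.24 with SE 0.09, adjusted p = 0.0469, limma), a call lost in many of the alternatives, among them leaving out any 1 library other than Rroid-deficient library 5 (adjusted p = 0.0522 to 0.192). The peak at the transcript's end held 358 ± 22.0 in wildtype against 346 ± 6.2 in Rroid-deficient cells. The 6 peaks in and upstream of Slamf7 together held 3287 ± 202 in wildtype against 3518 ± 361 in Rroid-deficient cells. With the peak past the end added, the 7 peaks held 6402 ± 384 in wildtype against 6156 ± 516, so the sum was 107.0% of wildtype without that peak and 96.2% with it.

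Slamf1 (CD150), by RefSeq gene order between Cd48 and Cd84, had no peak to its name. The widest gap between neighbouring member peaks, 116.1 kb, lay between the last Cd48 peak and the first Cd84 peak. The table lists consensus peaks only, so low signal in the gap is not shown by it.

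Summed over the peaks that have it as nearest gene, each gene gives 1 value per library. The Slamf6 sum was 788 ± 34.7 in wildtype against 1235 ± 38.6 in Rroid-deficient cells, 156.8% of wildtype (log2 fold change 0.65, SE 0.10, adjusted p = 0.000411, limma over 16526 gene sums). The Cd244 sum was 3251 ± 169 in wildtype against 2721 ± 250.5 in Rroid-deficient cells (log2 fold change -0.26, adjusted p = 0.0481), and the Cd84 sum was 1673 ± 117 in wildtype against 1377 ± 73.8 in Rroid-deficient cells (log2 fold change -0.28, adjusted p = 0.0485). Of all gene sums, 9.69% were called lower and 11% higher. Both lower calls were close to the limit. The Cd244 call was lost without any 1 library other than Rroid-deficient library 5, and the Cd84 call without wildtype library 1 or 2 or Rroid-deficient library 4 or 6, so that 0 lower sums were left in 4 of the 6 fits. Ly9 (log2 fold change -0.25, 95% interval -0.44 to -0.06, adjusted p = 0.0636), Cd48 (-0.24, -0.48 to 0.01, adjusted p = 0.165) and Slamf7 (0.26, -0.02 to 0.53, adjusted p = 0.169) did not pass. By nearest-gene peaks, Slamf6 was the least open per kb in wildtype, with 171 normalized reads per kb, and Cd244 the most, with 469. The libraries of the other 4 genes overlapped in neighbouring pairs. The Slamf7 value (267) leaves out the peaks inside the gene labelled Mir7683, 1 of which held 2347 per kb. Slamf7 as a whole is therefore not ranked here. In Rroid-deficient cells Slamf6, with 268, lay above Cd84 (254), Cd48 (229) and Ly9 (221), although its libraries overlapped with those of Cd84.

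Whether neighbouring members differed in their response was tested on the log2 ratio of their gene sums in each library. The test was limma, here with the trend off, over 16503 pairs, nearly all of adjoining genes, of which 22.3% were called. Ly9 and Slamf7 are neighbours among the members only, since peaks labelled Mir7683 lie between theirs. Such a ratio does not depend on the scaling between libraries, and the test was chosen after the values were seen. The ratio of Slamf6 to Cd84 was -1.17, -1.05 and -1.03 in wildtype and -0.09, -0.26 and -0.12 in Rroid-deficient cells, library by library. It differed by 0.93 between the genotypes (95% interval 0.73 to 1.13, adjusted p = 0.00245). Slamf7 over Ly9 differed by 0.50 (0.22 to 0.79, adjusted p = 0.0314), and Cd48 over Slamf7 by -0.49 (-0.73 to -0.25, adjusted p = 0.0205). Both calls on Slamf7 were lost without wildtype library 2 (adjusted p = 0.0702 and 0.07) and in several other fits that left out a library. The Slamf7 sum in these ratios holds only its 3 nearest-gene peaks, at 119.7% of wildtype. With the peaks inside Slamf7 labelled Mir7683 added, the 6 peaks came to 107.0% of wildtype (96.2% with the peak past the end). Ratios with those sums were not tested, so the calls concern the nearest-gene peaks and not Slamf7 as a whole. Ly9 over Cd244 and Cd84 over Cd48 differed by 0.01 (-0.19 to 0.21) and -0.04 (-0.31 to 0.22).

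**Figure D3:**
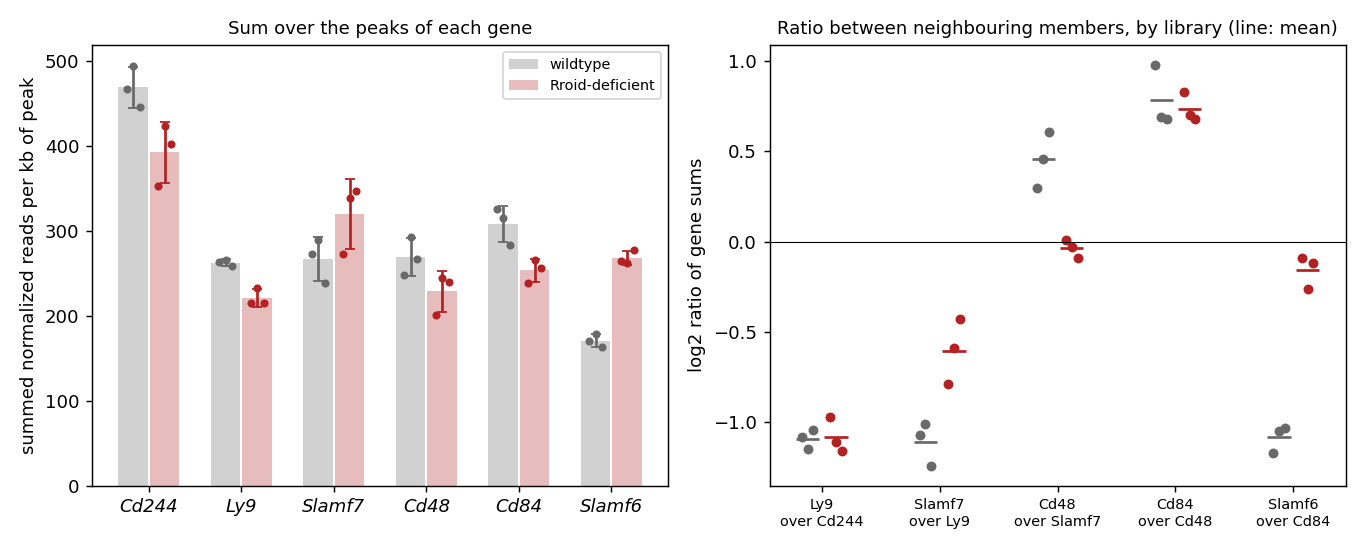
Left, normalized reads summed over the nearest-gene peaks of each gene and divided by their covered length in kb, by library (points), with mean (bar) and SD (n = 3). Slamf7 is shown without the peaks inside it labelled Mir7683. Right, log2 ratio of the gene sums of neighbouring members in each library, with the mean as a line. Slamf6 goes from the lowest bar in wildtype to a level above Cd84, Cd48 and Ly9 in Rroid-deficient cells, and its ratio to Cd84 separates the genotypes by 0.93.

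Peaks around the cluster were read for comparison. Within 1 Mb on either side of the cluster, 23 of 123 peaks fell and 9 rose, with a median log2 fold change of -0.12. On the flank beyond Slamf6, 10 of 54 fell and 5 rose (median -0.10), and on the flank beyond Cd244 13 of 69 fell and 4 rose (median -0.13). Over all 3599 peaks of chromosome 1, 488 fell and 504 rose (median -0.03). The flank peaks had a median mean value of 289 against 195 over all peaks. Over all peaks with a mean value at or above the median, the median log2 fold change was -0.07. Slamf8 and Slamf9, family members in the flank beyond Slamf6, had 1 peak each, both among the 54 counted there. The Slamf8 peak (174524071 to 174525126, intergenic) held 117, 139.5 and 150.4 normalized reads in the wildtype libraries, against 86.2, 60.0 and 81.0 in the Rroid-deficient libraries and fell (log2 fold change -0.84 with SE 0.22, adjusted p = 0.00865, limma), while the Slamf9 peak held 43.7 ± 7.1 in wildtype against 56.6 ± 12.1 in Rroid-deficient cells, without a call.

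Within 10 kb of a start site 4 of 19 member peaks fell and 2 rose, and farther out 1 of 10 fell and 2 rose. Over all peaks, at any distance, 12.1% were called lower and 13.8% higher. The counts are small and were not compared with all peaks at the same distances, so they show no difference by distance. By class, 13 member peaks were intergenic, 13 intronic and 1 a promoter peak, and the median width was 865 bp against 964 bp over all peaks.

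The adaptors and enzymes that SLAM receptors use were read from a list of 16 genes with 128 peaks. Of these, 24 fell, 15 rose and 89 were not called, or 18.8% lower and 11.7% higher against 12.1% and 13.8% of all peaks. The median log2 fold change was -0.08 against -0.01. These peaks were tall, with a median mean value of 379 against 195 over all peaks. Over all peaks with a mean value at or above the median, the median log2 fold change was -0.07, close to that of the list. Called shares were not compared at equal height. Leaving out wildtype library 2, Rroid-deficient library 4 or library 6 brought the number that fell to 9, 12 and 13. The start-site peak of Sh2d1a (SAP; chromosome X, 39854857 to 39856869) held 926 ± 72.4 in wildtype against 1029.9 ± 112 in Rroid-deficient cells, and 0 of its 11 peaks were called. The start-site peak of Sh2d1b1 (EAT-2; chromosome 1, 172206018 to 172207815) held 1353 ± 59.2 in wildtype against 1313 ± 75.4 in Rroid-deficient cells, and 0 of 4 were called. Sh2d1b2 (ERT), a mouse relative of EAT-2, fell at its intron 1 peak (chromosome 1, 172165115 to 172166335) from 503 ± 35.9 to 383 ± 50.1 (log2 fold change -0.40 with SE 0.13, adjusted p = 0.0352, limma), a call lost without wildtype library 2 (adjusted p = 0.0863), without wildtype library 3 (0.116), without Rroid-deficient library 4 (0.153) and without library 6 (0.0950).

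Among the kinases and phosphatases 12 of 56 peaks fell and 8 rose, and further downstream 11 of 55 fell and 7 rose. The genes below are described at their called peak of smallest p, and their other peaks are given as counts. Fyn, the kinase that SAP brings to the receptors, fell at an intron 3 peak (chromosome 10, 39181864 to 39183137) from 912 ± 49.4 to 519.7 ± 24.6 (adjusted p = 3.28e-05, limma). Of its 25 peaks, 4 fell and 2 rose, with log2 fold changes of -0.81 to 1.21 and a median of -0.04. Lck, a related kinase, had 3 of 5 peaks called higher and 0 lower. Its named peak, 6973 bp upstream of a start site (chromosome 4, 129242198 to 129242981), held 74.8, 124 and 108 normalized reads in the wildtype libraries, against 391, 426 and 359 in the Rroid-deficient libraries, and rose 3.83-fold (adjusted p = 1.03e-06, limma). Lck is also a T-cell gene. Of the T-cell start-site peaks given above, Cd3g and Cd5 were called higher too, while Cd28 was lower without a call. Whether the rise of Lck goes with them was not tested.

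Ptpn11 (SHP-2), a phosphatase that binds SLAM tails, fell at an intron 1 peak (chromosome 5, 121628966 to 121630074) from 120.5 ± 13.0 to 49.9 ± 12.2 (adjusted p = 0.000864, limma), while another of its 5 peaks was called higher and their median log2 fold change was 0.14. Plcg2, a phospholipase of NK activation, fell at an intron 2 peak (chromosome 8, 120036429 to 120037675) from 308 ± 53.6 to 164 ± 14.1 (adjusted p = 0.000726), and 3 of its 10 peaks fell and 0 rose. Prkcq, a protein kinase C, rose 4.04-fold at a peak 132195 bp upstream (chromosome 2, 10961456 to 10962173, intergenic), from 42.0 ± 0.8 to 169.6 ± 36.0 (adjusted p = 8.96e-06), and of its 16 peaks 5 rose and 2 fell. Dok1, an adaptor, rose 2.47-fold at a peak that has it as nearest gene but lies in an intron of M1ap by its own annotation (chromosome 6, 82958359 to 82959110), from 90.6 ± 16.2 to 224 ± 33.2 (adjusted p = 9.64e-05), and of its other 5 peaks 1 fell and 0 rose.

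The gene whose sum most resembled each member over the 6 libraries was found by the root mean square difference of centred log2 sums among 10507 genes with 2 or more peaks. For Slamf6 it was Mir146 (difference 0.042, log2 fold change 0.67), for Cd84 Ybx3 (0.010, -0.27), for Ly9 Snx29 (0.018, -0.27), for Cd244 Rab11fip4os1 (0.020, -0.28), for Cd48 Gtpbp3 (0.023, -0.24) and for Slamf7 Atcay (0.037, 0.29). None of the 6 lies on chromosome 1. With so many genes compared over 6 libraries, near matches are common, and these names describe the profiles only.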

How the data were processed

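ATAC-seq signal was measured in 6 libraries of sorted spleen NK cells, 3 per genotype. The submitters' processing notes name, without order, BWA, Trimmomatic 0.32, HOMER, MACS2 2.1.0, bcl2fastq 2.16.0, DiffBind, build mm9 and R 3.1.1. For read shift and duplicate removal, the sources used here state nothing. The authors deposited 1 signal value per consensus peak and library: reads divided by 1 factor per library, with HOMER annotation per the file headers. Whole reads were recovered from the steps between values (100% of values within 0.01 read), 27572006 to 47939665 per library. Pairs of replicates differed by more than sampling noise (chi-square per degree of freedom 3.45 to 9.6).

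The columns showed the genotype, and their end numbers (1 to 3 wildtype, 4 to 6 Rroid-deficient) name the libraries here. On log2(value + 1), limma 3.58.1 (trend on) was run over all 51775 peaks or 16526 gene sums, Benjamini-Hochberg adjusted, called under 0.05. Fold changes on that scale understate changes of low peaks; folds and percents of wildtype are ratios of mean values. A filter on low values (10 in 3 libraries) left out 0 peaks. The fit was also run on simulated data with a spread taken from these libraries, and no result here rests on that run. Alternatives included edgeR 4.0.16 and DESeq2 1.42.0 on recovered reads, pseudocounts, filters, scalings and leaving out libraries. Named peaks are every called member peak, each gene's peak nearest to the start site and its highest peak, with called signalling peaks of smallest p (up to 6 genes) and the adaptors' start-site peaks. Members and lists were chosen with earlier results of these data known.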

Additional observations from a re-analysis of the deposited data

How the results depend on the processing

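Each of the 9 called member peaks was also called with pseudocounts of 0.5 and 5, the low-value filter, DESeq2 size factors, edgeR and DESeq2. Under loess the Slamf6 intron 6 peak lost its call (adjusted p = 0.0769) while Slamf7 at 4344 bp gained one (0.0429), and the Cd244 sum lost its call (0.0678) while the Ly9 sum gained one (0.0455). No called named peak or called member sum changed sign. Uncalled named peaks near 0 did: Ly9 at 218 bp (0.06 without libraries 4 and 6), Sh2d1b1 at -539 bp (0.02 with equal totals, 0.01 with loess, 0.05 without libraries 4 and 6), and the Mir7683 peaks at -1895 bp (0.02 without library 4, 0.08 without 4 and 6) and 10331 bp (0.01 with equal totals). So did the uncalled differences of Ly9 to Cd244 (-0.05 to -0.02 in 3 leave-outs) and Cd84 to Cd48 (0.05 without library 1). Without the trend, 3 member peaks fell (3 rose), 0 gene sums fell and 12 signalling peaks fell. At an adjusted p under 0.01, 1 member peak, 0 gene sums and 10 signalling peaks fell. Testing only the upper part by mean value, which kept 16 member peaks and 3 member sums, left 2 rising member peaks, 0 rising and 0 falling sums and 9 rising signalling peaks. The Slamf6 sum and the Slamf6 peaks at 330 and 21988 bp lay below that height. They were not tested there, so their absence is not a lost call. The Cd244 and Cd84 sums were tested and missed the limit (adjusted p = 0.0554 and 0.0545, limma). Scaled to equal totals, 0 sums fell. Within 10 kb of a start site 2 member peaks rose. Without Rroid-deficient libraries 4 and 6, 0 member peaks and 0 sums fell and 2 member peaks rose, 5 signalling peaks fell and 8 rose, and the Slamf6 to Cd84 difference was 0.83 (adjusted p = 0.0714). Leaving out 1 library at a time gave 1 to 5 falling and 3 to 4 rising member peaks, 0 to 2 falling and 1 to 1 rising sums, 9 to 29 falling and 11 to 15 rising signalling peaks, and 0.89 to 0.98 for the Slamf6 to Cd84 difference. The lowest counts of falling member peaks came without wildtype library 2 (1), without Rroid-deficient library 4 (1) and without library 6 (2). The cause was not tested, except that fewer libraries or peaks entered these fits. The leave-out fits of the Slamf6 to Cd84 difference were added after seeing the data. No paired analysis was possible because the Rroid-deficient columns end in 4, 5 and 6, numbers that no title carries. Counting error limits peaks such as the lowest member peak, where 1 library held 33 reads.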
